A study of Homo sapiens with 24 samples.

Results

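The genes described here are 10 immediate early and AP-1 genes, FOS, FOSB, JUN, JUNB, JUND, EGR1, IER2, IER3, DUSP1 and KLF2, taken by name. The array annotation gave each of them 1 probe, so they were 10 of 20045 named genes and held 10 of the 47319 probes of the Illumina HumanHT-12 v4 BeadChip, and 9 of the 25017 probes that were detected often enough to be tested. Gene expression had been profiled to see which transcripts of B-cell lymphoma cells respond to artesunate, a semisynthetic derivative of artemisinin that is used against malaria. The Burkitt lymphoma line BL-41 and 2 lines of germinal center B-like (GCB) diffuse large B-cell lymphoma, Oci-Ly-2 and SU-DHL-4, were each measured as a 0 h control, after 4 h with 5 μM artesunate, as a 12 h control and after 12 h with 5 μM artesunate. Each of these 12 groups had 2 arrays, numbered 1 and 3, which gives 24 arrays. The design text describes the numbers as technical replicates, and whether they came from separate cultures was not settled. The p-values within and between cell lines therefore rest on array-to-array spread alone. Those over the cell lines come from group means, with the cell line as the replicate. The labels call the controls untreated, where the study speaks of vehicle, and which of these holds was not settled. They give no control at 4 h, so artesunate at 4 h was set against the 0 h control, where drug and time in culture cannot be told apart.

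Immediate early genes are transcribed within minutes of a signal from growth factors, the B-cell receptor or stress, without the need for new protein, and their transcripts are mostly short-lived. The Fos proteins (FOS, FOSB) pair with the Jun proteins (JUN, JUNB, JUND) to form AP-1, a dimeric transcription factor, and EGR1 is a zinc finger factor that follows MAP kinase signaling, as in B-cells after their receptor is engaged. DUSP1 is a phosphatase that switches MAP kinases off again, IER2 and IER3 are small proteins named for their early response, and KLF2 is a zinc finger factor known in lymphocytes for resting state and homing. Serum response factor, which binds the CArG box, and factors of the CREB and ATF families, which bind the cAMP response element, are well known regulators at promoters of this class.

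The 4 promoters shown are those of the gene called with artesunate over the cell lines (IER2) and of 3 of the genes called between the controls of the cell lines (DUSP1, EGR1 and KLF2). Each is the 250 bases before the gene's start from RefSeq (GRCh38.p14), with motif matches in capitals, which mark a cAMP response element in DUSP1 and CArG boxes in EGR1. IER2 lies at chr19:13150161-13150410 on the plus strand, DUSP1 at chr5:172771196-172771445 on the minus strand, EGR1 at chr5:138465229-138465478 on the plus strand and KLF2 at chr19:16324576-16324825 on the plus strand.
IER2: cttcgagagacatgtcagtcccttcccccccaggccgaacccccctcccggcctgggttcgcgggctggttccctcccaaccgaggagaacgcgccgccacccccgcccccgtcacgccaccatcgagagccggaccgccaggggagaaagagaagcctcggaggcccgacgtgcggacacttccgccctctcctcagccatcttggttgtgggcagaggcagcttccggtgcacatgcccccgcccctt
DUSP1: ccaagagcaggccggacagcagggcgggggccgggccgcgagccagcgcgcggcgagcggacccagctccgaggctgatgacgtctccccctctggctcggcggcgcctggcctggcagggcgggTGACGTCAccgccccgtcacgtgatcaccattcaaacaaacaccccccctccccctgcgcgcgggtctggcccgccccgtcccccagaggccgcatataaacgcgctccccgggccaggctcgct
EGR1: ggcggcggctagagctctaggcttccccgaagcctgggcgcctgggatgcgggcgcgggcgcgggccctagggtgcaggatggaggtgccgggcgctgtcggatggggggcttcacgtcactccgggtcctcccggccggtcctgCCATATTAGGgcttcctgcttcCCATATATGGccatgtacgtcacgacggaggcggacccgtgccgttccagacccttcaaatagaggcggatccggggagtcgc
KLF2: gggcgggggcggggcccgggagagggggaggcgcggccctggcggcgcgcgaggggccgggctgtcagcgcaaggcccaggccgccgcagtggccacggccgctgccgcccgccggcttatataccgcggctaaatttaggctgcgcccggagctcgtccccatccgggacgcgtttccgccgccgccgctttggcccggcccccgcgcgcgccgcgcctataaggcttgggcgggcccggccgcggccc
Promoters of 9 of the 10 genes were matched by symbol, all but that of IER3, and searched on both strands together with the 50 bases after the start. The cAMP response element TGACGTCA stood in DUSP1, from position -125 to -118 before the start, and in JUND, from -200 to -193, against 1.85% of 35116 promoters of the same length. The CArG box stood at 2 places in EGR1, from -105 to -96 and from -83 to -74, against 1.29% of those promoters. The AP-1 site TGACTCA, found in 4.95%, and the ATF4 element core TGATGCAA, found in 0.866%, stood in 0 of the 9. No matches of different motifs overlapped in these genes. A match describes the letters of the window and not a bound site.

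Levels below are normalized log2 signals, with array 1 before array 3, and a probe counts as detected where its detection p, against the negative control probes, was under 0.05. The probe of FOS was detected on 0 of 24 arrays, with a lowest detection p of 0.0701, so FOS was not tested and its level lay between 4.19 and 4.68 throughout. JUND and IER2 were detected on all 24 arrays, JUNB on 22, EGR1 on 19, KLF2 on 17, DUSP1 on 15, FOSB on 13, IER3 on 8 and JUN on 7. Detection went by cell line: DUSP1 was detected on all 8 arrays of BL-41, 7 of Oci-Ly-2 and 0 of SU-DHL-4, and FOSB on all 8 of SU-DHL-4, 5 of BL-41 and 0 of Oci-Ly-2. JUN was likewise detected on 5 arrays of BL-41, 2 of Oci-Ly-2 and 0 of SU-DHL-4. Across the arrays 16156 to 18171 probes were detected. Of 6 B-cell marker genes with a probe, 5 were detected on all 24 arrays and PAX5 on 0, while of the T-cell, myeloid and fibroblast markers only the myeloid LYZ, on 22 arrays, was detected on more than 11. ACTB and GAPDH, each with 3 probes, had 0 probes called in any comparison of artesunate or time.

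**Figure D1:**
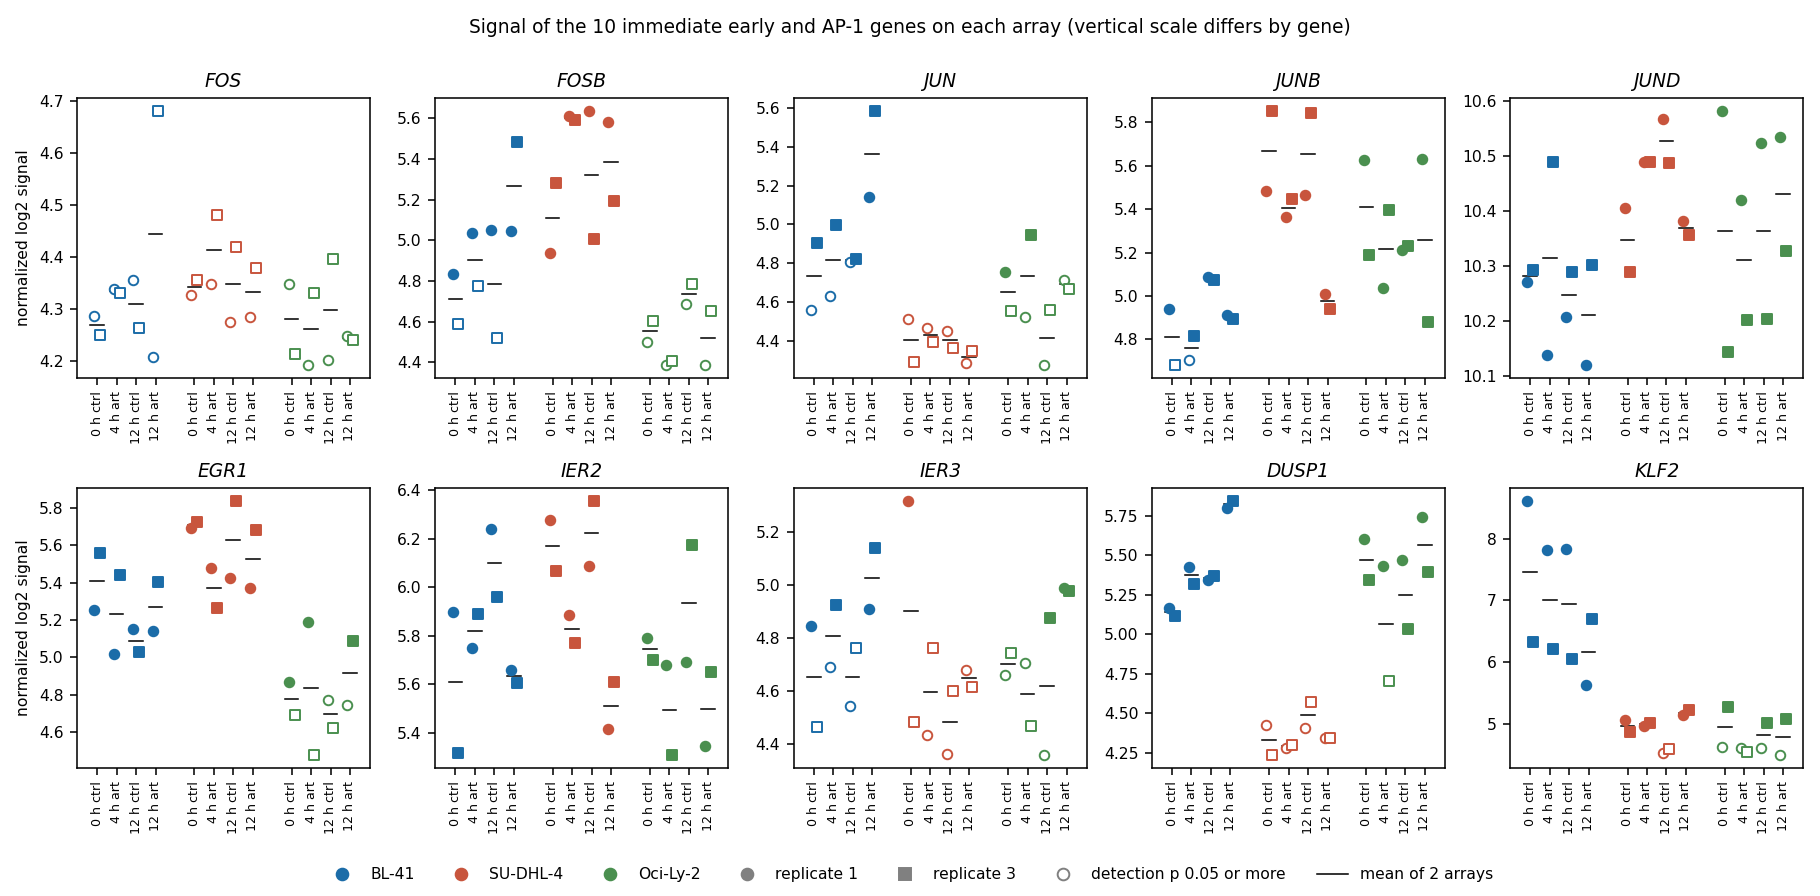
Normalized log2 signal (vertical axis, with its own scale for each gene) of the 10 genes on the 24 arrays, by cell line and condition (horizontal axis: control, ctrl; artesunate, art); circles are replicate 1, squares replicate 3, open symbols were not detected and bars are means of 2 arrays. All FOS symbols are open, DUSP1 is open in all 8 arrays of SU-DHL-4, and the KLF2 arrays of BL-41 lie apart from each other, at 8.61 and 6.32 in the 0 h control.

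At 0 h the controls of the cell lines differed in KLF2, DUSP1, EGR1 and JUNB. A probe was called where the log2 fold change passed 0.5 in size with a Benjamini-Hochberg adjusted p under 0.01 in limma, over all probes tested. Of the 9 genes, 3 were called between BL-41 and SU-DHL-4, against 15.2% of all probes, 1 between BL-41 and Oci-Ly-2, against 14.3%, and 2 between SU-DHL-4 and Oci-Ly-2, against 15.3%. In these bulk RNA samples, fewer cells that express a gene and less of its RNA per cell cannot be told apart.

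KLF2 was highest in BL-41. Its level at 0 h was 8.61 and 6.32 in BL-41, against 5.07 and 4.88 for SU-DHL-4. In Oci-Ly-2 it was 4.62, which was not detected, and 5.28. Both arrays of BL-41 lay above all those of the other lines, which overlapped with each other. KLF2 was 5.63-fold higher in BL-41 than in SU-DHL-4 (log2 fold change 2.49, SE 0.592, adjusted p = 0.00368) and 5.72-fold higher than in Oci-Ly-2 (2.52, SE 0.592, adjusted p = 0.00354) in limma, while the difference between the other lines was 0.02 with a 95% interval from -1.22 to 1.26. Each call was kept in only 1 of the 4 fits that left out an array, that without BL-41 replicate 3 (3.64, adjusted p = 0.000141, and 3.66, adjusted p = 0.000146). Without BL-41 replicate 1 they were 1.35 (adjusted p = 0.136) and 1.37 (adjusted p = 0.134). The call against SU-DHL-4 was also lost without its replicate 1 (adjusted p = 0.0203) or 3 (adjusted p = 0.0269), and that against Oci-Ly-2 without its replicate 1 (adjusted p = 0.0512) or 3 (adjusted p = 0.0105).

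In BL-41, replicate 1 gave 8.61 at 0 h, 7.82 after 4 h with artesunate, 7.84 in the 12 h control and 5.63 after 12 h with artesunate. Replicate 3 gave 6.32, 6.21, 6.05 and 6.70 in the same conditions. Replicate 1 was thus the higher in 3 conditions and the lower after 12 h with artesunate. The replicates were 1.79 apart in the 12 h control, more than for any other of the 25017 probes tested, and 2.29 apart at 0 h, where 2 probes, KLF2 among them, differed by at least as much. The standard deviation of KLF2 within groups was 0.741 over all 24 arrays, against a median of 0.185 over all probes tested and 0.154 to 0.249 for the other 8 genes tested. In SU-DHL-4 the KLF2 replicates lay within 0.19 of each other in every condition.

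DUSP1 was low in SU-DHL-4. Its level at 0 h was 5.17 and 5.11 in BL-41, 5.60 and 5.34 in Oci-Ly-2, and 4.43 and 4.24 in SU-DHL-4, where neither array detected it. Over all conditions the 8 arrays of SU-DHL-4 ran from 4.24 to 4.57, and the 16 of the other lines from 4.70 upward. The array at 4.70, of Oci-Ly-2 after 4 h with artesunate, did not detect it either. Against SU-DHL-4, DUSP1 was higher by at least 1.21-fold in BL-41 (log2 fold change 0.81, SE 0.193, adjusted p = 0.00381) and by at least 1.53-fold in Oci-Ly-2 (SU-DHL-4 against Oci-Ly-2: -1.14, SE 0.193, adjusted p = 0.000137) in limma, where the bounds set the undetected arrays at the detection limit. Between BL-41 and Oci-Ly-2 DUSP1 differed by -0.33, with an interval from -0.74 to 0.07. The call between SU-DHL-4 and Oci-Ly-2 was kept in each of the 4 fits that left out an array, but was lost with median scaling (-0.80, adjusted p = 0.0361) and with the deposited processed values (-0.45), where it missed the fold limit. That between BL-41 and SU-DHL-4 was lost without any of them, at adjusted p = 0.0114 to 0.0386.

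EGR1, whose promoter carries the CArG boxes, was highest in SU-DHL-4 and lowest in Oci-Ly-2. Its level at 0 h was 5.70 and 5.73 in SU-DHL-4, 5.26 and 5.56 in BL-41, and 4.87 and 4.69 in Oci-Ly-2, the last not detected. EGR1 was 1.91-fold higher in SU-DHL-4 than in Oci-Ly-2 (log2 fold change 0.93, SE 0.216, adjusted p = 0.00286), and BL-41 differed by -0.30 from SU-DHL-4 and by 0.63 from Oci-Ly-2, at adjusted p = 0.373 and 0.0427. The call was lost without any 1 of the 4 arrays, with a difference of 0.84 to 1.02 and adjusted p = 0.0116 to 0.0365.

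JUNB, an AP-1 subunit that is itself an immediate early gene, was lowest in BL-41. Its level at 0 h was 4.94 and 4.68 in BL-41, with the last not detected, 5.63 and 5.19 in Oci-Ly-2, and 5.48 and 5.85 in SU-DHL-4. JUNB was 1.81-fold lower in BL-41 than in SU-DHL-4 (log2 fold change -0.86, SE 0.21, adjusted p = 0.00476), a call that was kept in 1 of the 4 fits that each left out an array, over which adjusted p ran from 0.00623 to 0.0667. Against Oci-Ly-2 the difference was -0.60 (adjusted p = 0.0481), and the arrays of Oci-Ly-2 overlapped with those of SU-DHL-4.

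The 12 h controls, set against each other as an alternative chosen after seeing the data, gave 4 calls, on KLF2, DUSP1 and EGR1. They share no array with the 0 h controls, but the variance of both comparisons came from the same fit of 24 arrays. For KLF2, replicate 1 of BL-41 was the higher in both controls, at 8.61 against 6.32 at 0 h and 7.84 against 6.05 at 12 h. Folds are given as bounds where both arrays of the lower line did not detect the gene. KLF2 was then at least 4.41-fold higher in BL-41 than in SU-DHL-4 (adjusted p = 0.00547), and higher than in Oci-Ly-2 by 2.13 on the log2 scale (adjusted p = 0.0123), which was not called. Against SU-DHL-4, which did not detect it, DUSP1 was higher by at least 1.46-fold for BL-41 (adjusted p = 0.0022) and by at least 1.36-fold for Oci-Ly-2 (adjusted p = 0.00608). EGR1 was at least 1.77-fold higher in SU-DHL-4 than in Oci-Ly-2 (adjusted p = 0.00289), while JUNB in BL-41 differed from SU-DHL-4 by -0.57 (adjusted p = 0.0588) and was not called. Over all probes 14.8%, 14.6% and 15% were called between the 12 h controls of BL-41 and SU-DHL-4, of BL-41 and Oci-Ly-2, and of the 2 large B-cell lines.

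**Figure D2:**
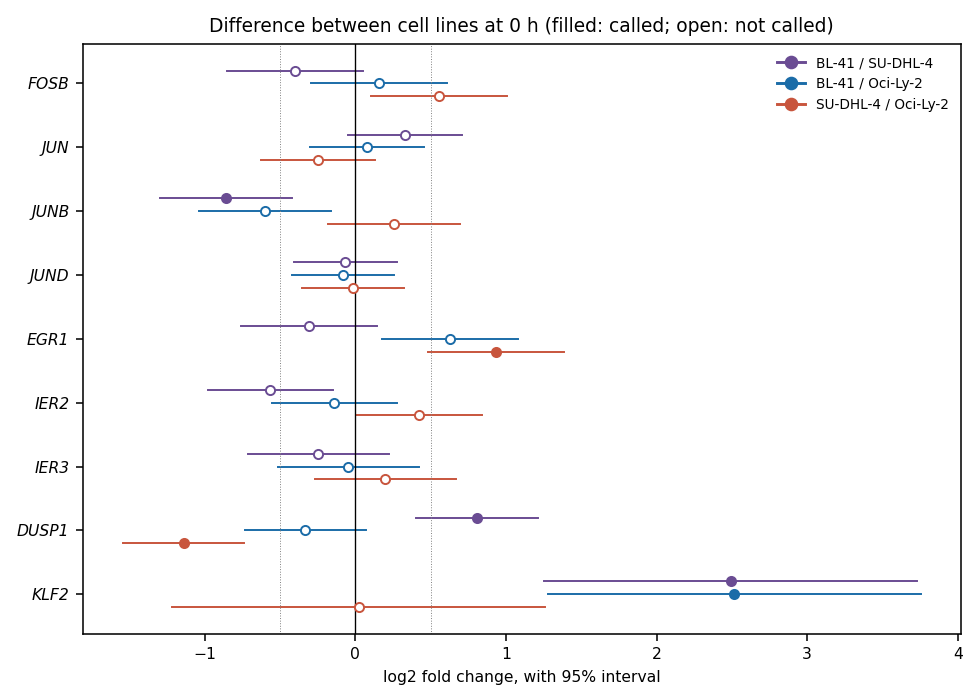
Log2 fold change between 0 h controls (horizontal axis) with its 95% interval for the 9 genes tested, for each pair of cell lines; filled points were called. The interval of KLF2 is the widest, around 2.49 and 2.52 for BL-41 against the other lines, and DUSP1 is called on both sides of SU-DHL-4.

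The remaining 5 genes tested were not called between the 0 h controls. FOSB was 4.94 and 5.28 in SU-DHL-4, 4.84 and 4.59 in BL-41 and 4.50 and 4.60 in Oci-Ly-2, and neither array of Oci-Ly-2 detected it. FOSB was at least 1.27-fold higher in SU-DHL-4 than in Oci-Ly-2 (adjusted p = 0.0736), which was not called. IER2 was 0.56 lower in BL-41 than in SU-DHL-4 (adjusted p = 0.0465), without a call. JUN and IER3 differed by at most 0.33 in size, and JUND, the Jun protein gene that most cells transcribe without a signal, by at most 0.08. JUND ran from 10.12 to 10.58 over all 24 arrays.

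At 4 h with artesunate, 0 of the 9 genes were called in any cell line by limma, against 0% of all probes in BL-41, 0% in Oci-Ly-2 and 0.056% for SU-DHL-4. The genes with an unadjusted p under 0.05 numbered 0 in BL-41, 1 in Oci-Ly-2 (DUSP1) and 1 for SU-DHL-4 (FOSB), against 8.24%, 7.52% and 10.8% of all probes. FOSB in SU-DHL-4 was 5.61 and 5.59 at 4 h and 4.94 and 5.28 at 0 h, with a log2 fold change of 0.49 (SE 0.216, adjusted p = 0.402). DUSP1 in Oci-Ly-2 was 5.43 and 4.70 at 4 h, the last not detected, and 5.60 and 5.34 at 0 h, with a log2 fold change of -0.40 (adjusted p = 0.663). Intervals reached from -0.81 to 0.94 for genes other than KLF2, and from -1.69 to 1.26 for KLF2.

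With the cell line as the replicate, 0 of the 9 genes were called at 4 h, against 1.12% of all probes, and 0 had an unadjusted p under 0.05, against 13.8% of all probes. The smallest interval was that of JUND, from -0.14 to 0.23, and the most negative value that of KLF2, at -0.27 with an interval from -0.74 to 0.21. EGR1, which often peaks within the first hour of a signal, was -0.15 with an interval from -0.37 to 0.07. No sample was taken before 4 h, so an earlier peak was not measured.

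Time in culture alone gave 0 calls among the 9 genes. Between the 12 h and 0 h controls, 0.004% of all probes were called in BL-41, 0.00799% in Oci-Ly-2 and 0% for SU-DHL-4, and at an unadjusted p under 0.05 there were 1, 0 and 0 genes, with 5.68%, 4.94% and 9.43% of all probes. That gene was IER2 in BL-41, at 6.24 and 5.96 in the 12 h control and 5.90 and 5.32 at 0 h (log2 fold change 0.49, SE 0.198, adjusted p = 0.812). Across the lines 0 of the 9 were called, against 0.004%, and 0 had an unadjusted p under 0.05, against 8.95% of all probes.

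At 12 h with artesunate, 0 of the 9 genes were called within a cell line by limma, against 1.51% of all probes in BL-41, 3.03% in Oci-Ly-2 and 0.931% for SU-DHL-4. Unadjusted p was under 0.05 for 4 genes in BL-41 (JUN, FOSB, DUSP1 and IER2), 2 in SU-DHL-4 (IER2 and JUNB) and 1 in Oci-Ly-2 (IER2), and for 14.4%, 15.8% and 19.2% of all probes in these 3 lines. With the cell line as the replicate, 1 of the 9 genes was called, IER2, which fell, against 4.16% of all probes and 2.09% called lower.

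Only IER2, of the 9 genes, was called lower over the cell lines at 12 h, where artesunate was set against the 12 h control. In BL-41 it was 5.66 and 5.61 with artesunate and 6.24 and 5.96 in the control. In SU-DHL-4 it was 5.42 and 5.61 with artesunate and 6.09 and 6.36 in the control. In Oci-Ly-2 it was 5.34 and 5.65 with artesunate and 5.69 and 6.18 in the control. Both artesunate arrays lay below both controls in each of the 3 cell lines, closest in Oci-Ly-2, a pattern that 6.15% of all probes shared. Over the cell lines IER2 was 1.45-fold lower (log2 fold change -0.54, SE 0.117, 95% interval -0.79 to -0.28, adjusted p = 0.00927). Within the cell lines its log2 fold change was -0.47 in BL-41 (adjusted p = 0.264), -0.71 in SU-DHL-4 (adjusted p = 0.0575) and -0.44 in Oci-Ly-2 (adjusted p = 0.228). The 12 h control of IER2 itself stood 0.24 above the 0 h control over the cell lines, with an interval from -0.01 to 0.50. Its means at 0 h and after 12 h with artesunate were 5.61 and 5.63 in BL-41. They were 5.75 and 5.5 in Oci-Ly-2, and 6.17 and 5.51 in SU-DHL-4. A fall below the 0 h level was thus not seen in BL-41.

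The IER2 call lay close to both limits. It was kept in 5 of the 12 fits that each left out an array, over which the log2 fold change ran from -0.62 to -0.46 and adjusted p from 0.00571 to 0.0361, and it was lost without each cell line in turn, at -0.57 without BL-41 (adjusted p = 0.035), -0.45 without SU-DHL-4 (adjusted p = 0.0639) and -0.59 without Oci-Ly-2 (adjusted p = 0.0786). At 4 h IER2 was 5.68 and 5.31 in Oci-Ly-2, 5.75 and 5.89 in BL-41, and 5.89 and 5.77 in SU-DHL-4. Its log2 fold change over the cell lines was -0.13 at 4 h, with an interval from -0.38 to 0.12.

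IER3, known as a stress-inducible regulator of cell survival, had both artesunate arrays above both controls in each cell line at 12 h, as had 6.17% of all probes, and it was not called. It was 4.91 and 5.14 with artesunate against 4.55 and 4.76 in BL-41, 4.68 and 4.62 against 4.36 and 4.60 in SU-DHL-4, and 4.99 and 4.98 against 4.36 and 4.88 in Oci-Ly-2. In SU-DHL-4 none of these arrays detected it. Neither control of BL-41 did, so the difference there was at least 1.16-fold, and the control of Oci-Ly-2 at 4.36 did not detect it either. Over the cell lines its log2 fold change was 0.30 (SE 0.112, adjusted p = 0.106).

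Among the Jun and Fos genes tested, none was called at 12 h. The values differed in sign between the cell lines, but opposite responses were not shown. JUN was below 0 only in SU-DHL-4 (-0.09) and FOSB only in Oci-Ly-2 (-0.22), each detected on 0 of 8 arrays there. JUNB and JUND were above 0 only in Oci-Ly-2, at 0.03 (SE 0.21) and 0.07 (SE 0.162). JUN was 5.14 and 5.58 with artesunate in BL-41 against 4.81 and 4.82 in the control, with a log2 fold change of 0.55 (SE 0.181, adjusted p = 0.121). The control array at 4.81 did not detect it. In Oci-Ly-2 JUN was 4.72 and 4.67 against 4.28 and 4.56, and in SU-DHL-4 4.29 and 4.35 against 4.45 and 4.36, with none of these arrays detected. FOSB in BL-41 was 5.05 and 5.49 against 5.05 and 4.52, the last not detected, with a log2 fold change of 0.48 (adjusted p = 0.303). Replicate 1 of FOSB thus stood at 5.05 in both conditions.

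JUNB in SU-DHL-4 was 5.01 and 4.94 with artesunate against 5.47 and 5.85, with a log2 fold change of -0.68 (SE 0.21, adjusted p = 0.0881). It was -0.18 in BL-41 and 0.03 in Oci-Ly-2, where the artesunate arrays stood at 5.63 and 4.88, on either side of the controls at 5.21 and 5.23. JUND had log2 fold changes from -0.16 to 0.07, and over the cell lines -0.04 with an interval from -0.23 to 0.14. Over the cell lines JUN was 0.24 (interval -0.04 to 0.53), FOSB 0.11 (-0.19 to 0.41) and JUNB -0.27 (-0.57 to 0.02).

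DUSP1, the MAP kinase phosphatase, was 5.80 and 5.84 with artesunate in BL-41 against 5.34 and 5.37, 5.74 and 5.40 in Oci-Ly-2 against 5.47 and 5.03, and 4.34 and 4.34 in SU-DHL-4 against 4.41 and 4.57, none of them detected. Its log2 fold change in limma was 0.47 in BL-41 (SE 0.193, adjusted p = 0.244) and 0.32 in Oci-Ly-2 (adjusted p = 0.415). The log2 fold change of EGR1 was 0.22 in Oci-Ly-2, 0.18 in BL-41 and -0.10 for SU-DHL-4. That of KLF2 was -0.03 in Oci-Ly-2, -0.78 in BL-41 and 0.61 for SU-DHL-4, each with an SE of 0.592. In SU-DHL-4 KLF2 was 5.14 and 5.22 with artesunate, and 4.54 and 4.60 in the control, where it was not detected. It was thus higher by at least 1.3-fold there, without a call (adjusted p = 0.693 in limma).

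**Figure D3:**
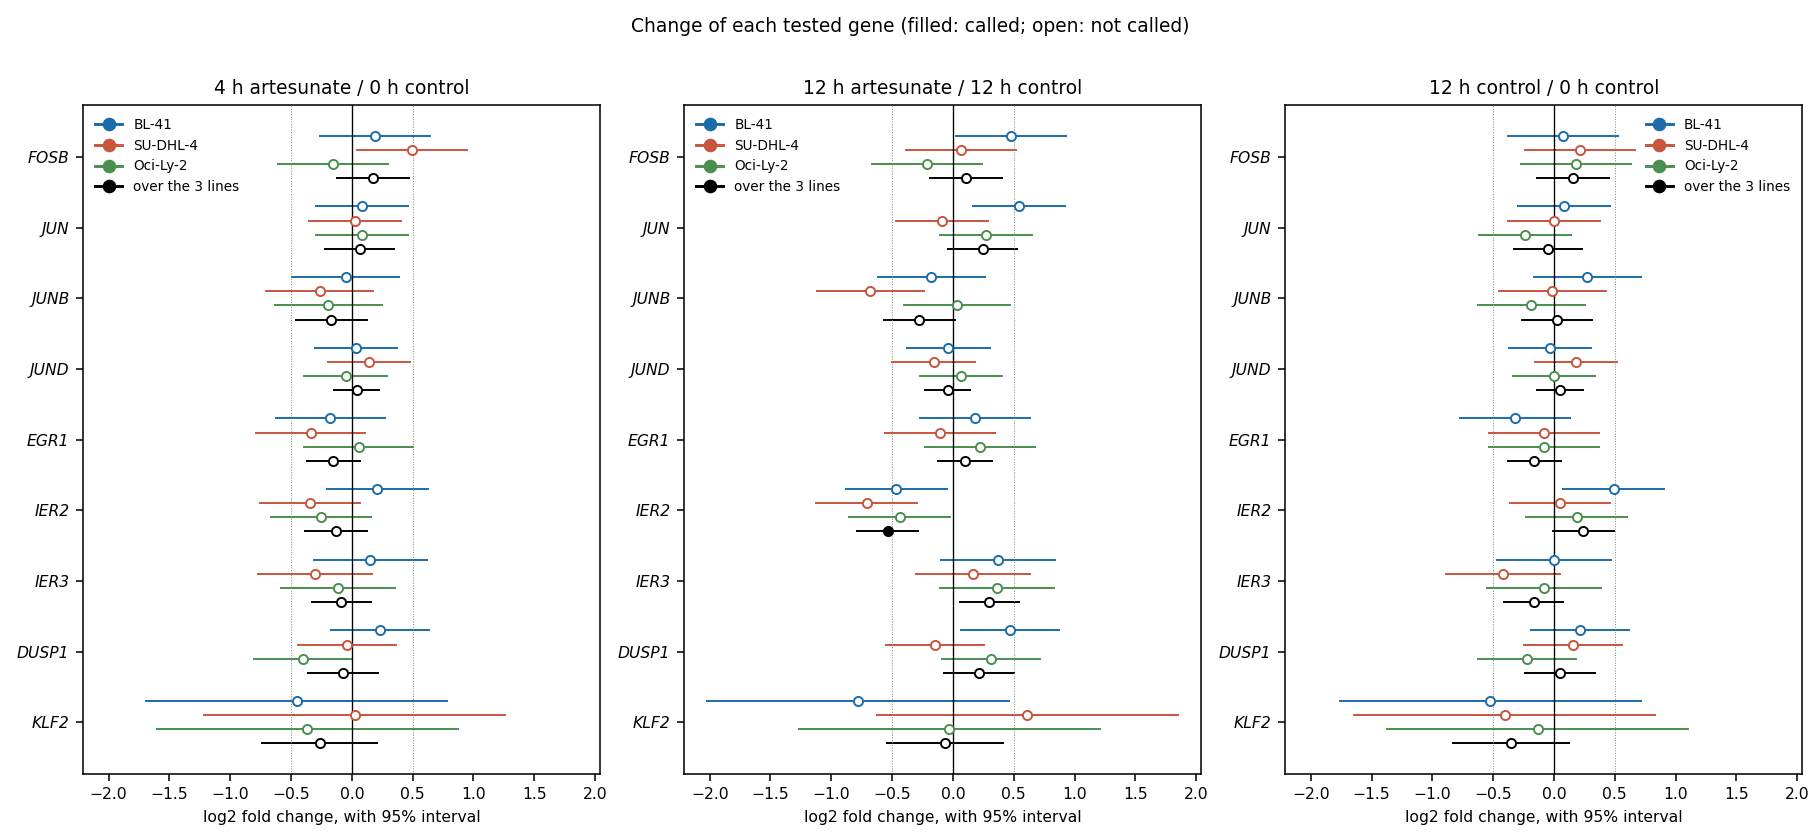
Log2 fold change (horizontal axis) with its 95% interval for the 9 genes tested, at 4 h against 0 h control, at 12 h against 12 h control and between the controls, within each cell line and over the 3 lines; filled points were called and dotted lines mark 0.5 in size. The only filled point is IER2 over the lines at 12 h, at -0.54, and the intervals of KLF2 within a cell line are the widest.

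The responses of the cell lines were also set against each other, and limma called 0 of the 9 genes in each of these 6 comparisons. At 12 h, 0.064% of all probes were called between the responses of BL-41 and SU-DHL-4, 0.12% between BL-41 and Oci-Ly-2 and 0.02% between SU-DHL-4 and Oci-Ly-2, with 2, 1 and 1 genes at an unadjusted p under 0.05, against 6.72%, 6.28% and 7.59% of all probes. Between BL-41 and SU-DHL-4 these were JUN and DUSP1 (adjusted p = 0.671 and 0.71), and between BL-41 and Oci-Ly-2 FOSB (adjusted p = 0.75). SU-DHL-4 detected JUN and DUSP1 on 0 of 8 arrays, and Oci-Ly-2 detected FOSB on 0 of 8, so the sizes of these differences are not known. The last was JUNB, 0.71 lower in SU-DHL-4 than in Oci-Ly-2 (-0.71, adjusted p = 0.578). At 4 h, 0%, 0% and 0% of all probes were called, with 0, 1 and 1 genes at an unadjusted p under 0.05, against 4.11%, 3.77% and 4.78% of all probes. The comparisons of the cell lines share arrays with each other.

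A few other genes of the same classes were called at 12 h. Their lists were chosen with earlier results of these data known, so the counts are a description. Of 10 other AP-1 family genes measured, 3 rose in Oci-Ly-2, 1 in BL-41 and likewise 1 in SU-DHL-4, and 0 fell, while of all probes 1.59%, 0.939% and 0.588% were called higher and 1.44%, 0.572% and 0.344% lower. ATF3, a stress-induced partner of the Jun proteins, rose in all 3 cell lines. It was 6.06 to 6.54 with artesunate in BL-41 and 5.90 to 6.15 in SU-DHL-4, where the controls were not detected, so the rise was at least 2.82-fold in BL-41 and at least 2.33-fold in SU-DHL-4. In Oci-Ly-2 ATF3 was 6.96 to 7.43 with artesunate and 4.53 to 4.84 in the control, with a log2 fold change of 2.51 (SE 0.183, adjusted p = 7.68e-08).

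JDP2, which dimerizes with Jun proteins and represses AP-1 targets, rose in Oci-Ly-2 by 1.58 (adjusted p = 0.00115), and so did BATF3, by 0.75 (adjusted p = 0.00368), or at least 1.18-fold, since its controls were not detected. Over the cell lines 2 of the 10 rose, ATF3 by 1.97 (adjusted p = 2.36e-05) and JDP2 by 1.04 (adjusted p = 0.00118), against 2.07% of all probes called higher. The median of the 10 was 0.07 over the cell lines, against -0.001 for all probes tested.

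Of 22 other immediate early genes measured, ATF3 included, 2 rose in Oci-Ly-2, 2 in BL-41 and, with KLF6, 3 in SU-DHL-4, and 0 fell. Of all probes 1.59%, 0.939% and 0.588% were called higher in these lines, and 1.44%, 0.572% and 0.344% lower. PPP1R15A, the phosphatase subunit that restores protein synthesis after stress, rose in all 3, by 1.74 in BL-41 (adjusted p = 1.2e-06), 2.14 in SU-DHL-4 (adjusted p = 2.27e-07) and 2.87 in Oci-Ly-2 (adjusted p = 2.44e-09). KLF6, a zinc finger factor related to KLF2, rose in SU-DHL-4 by 0.96 (adjusted p = 0.00698). Across the lines, where 2.07% of all probes were called higher and 2.09% lower, 4 rose and 1 fell. They were PPP1R15A at 2.25, ATF3, KLF6 at 0.64 (adjusted p = 0.0041), NFKBIA, the inhibitor that holds NF-κB in the cytoplasm, at 0.52 (adjusted p = 0.0041), and MYC at -0.53 (adjusted p = 0.00918), whose brighter probe gave -0.09 (adjusted p = 0.671). The median of the 22, each taken at its brightest probe, was -0.06.

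Of 6 other MAP kinase phosphatases measured, 0 were called within a cell line, where 3 in Oci-Ly-2, 1 in BL-41 and, for SU-DHL-4, 2 had an unadjusted p under 0.05, against 19.2%, 14.4% and 15.8% of all probes. Over the lines 1 of them fell, the nuclear phosphatase DUSP2, at -0.58 (SE 0.115, adjusted p = 0.00549), where 2.09% of all probes were called lower. Of 24 kinases and transcription factors upstream of these genes, 1 was called at 12 h, the MADS box factor MEF2D in Oci-Ly-2, at -0.89 (adjusted p = 0.00435), and 4 in BL-41, 9 in Oci-Ly-2 and, for SU-DHL-4, 4 had an unadjusted p under 0.05. Of 9 KLF2-linked migration genes and other Krüppel-like factors, 0 were called, with 2 in Oci-Ly-2, 1 in BL-41 and, for SU-DHL-4, 3 under an unadjusted p of 0.05. At 4 h, 0 genes of these lists were called in limma. Few probes were called at all, with 0% in BL-41, 0% in Oci-Ly-2, 0.056% for SU-DHL-4 and 1.12% over the lines. Unadjusted p was under 0.05 for at most 4 of any list in a cell line. These were 4 of the 24 upstream genes in BL-41, where 8.24% of all probes were under it.

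**Figure D4:**
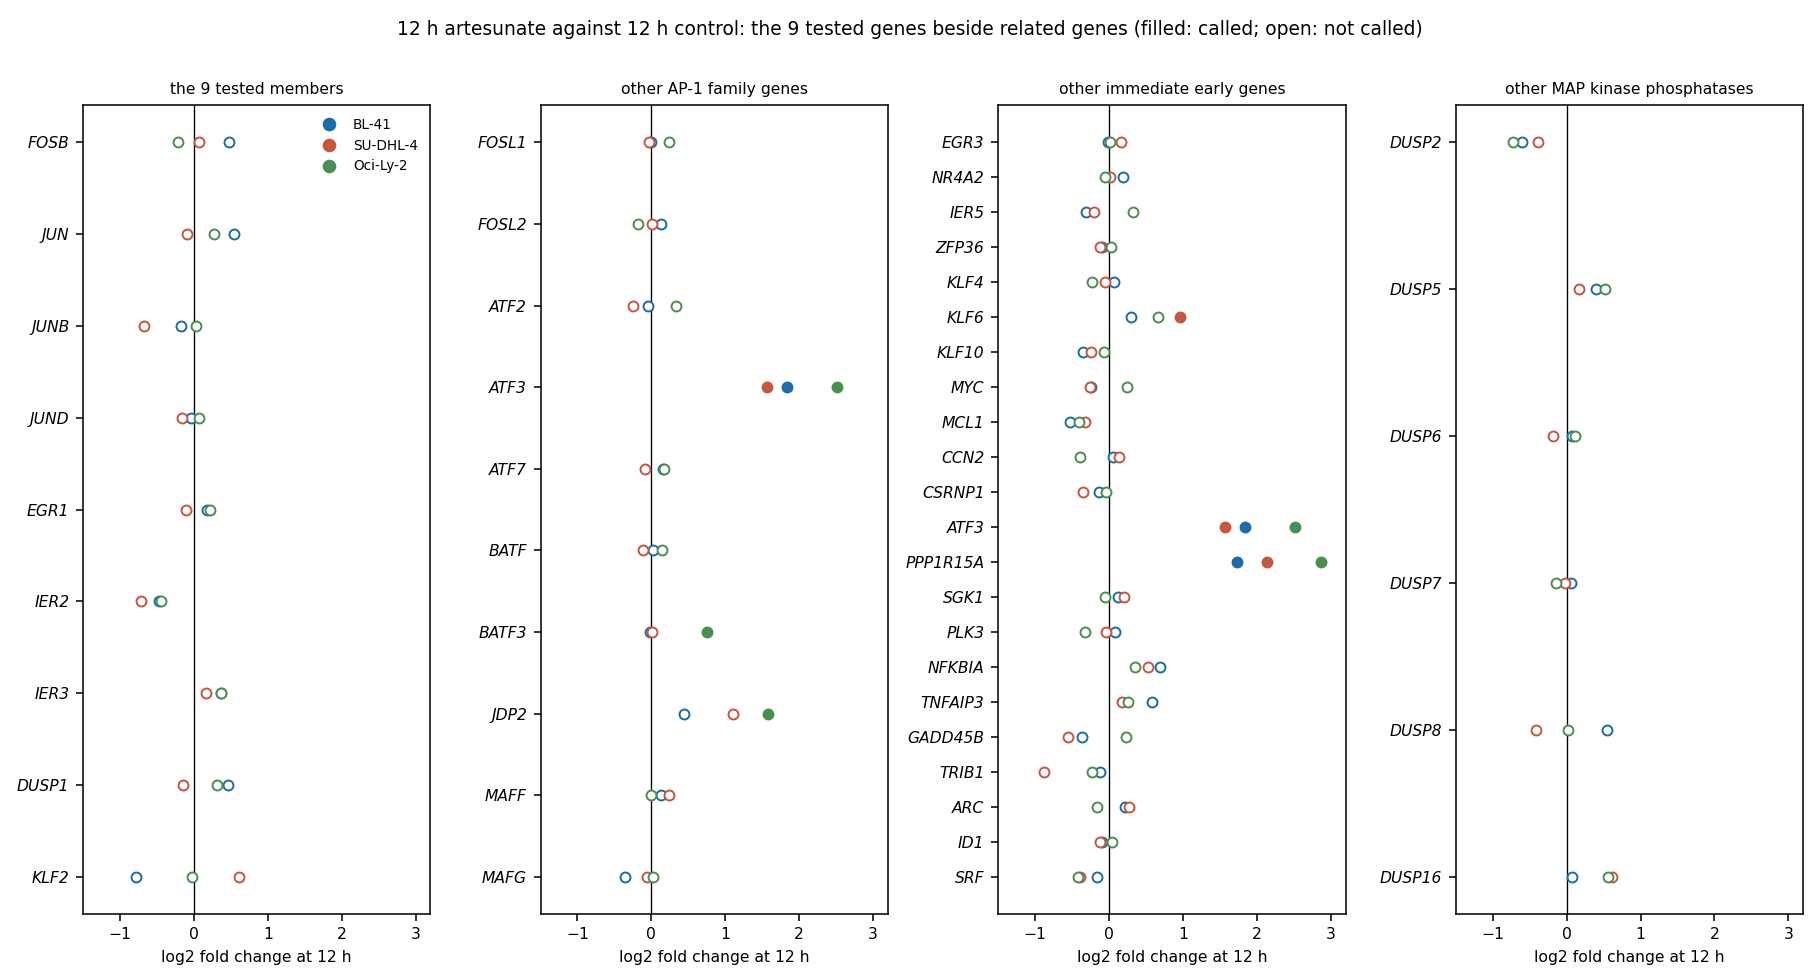
Log2 fold change at 12 h with artesunate against the 12 h control (horizontal axis) in each cell line, for the 9 genes tested and for 3 lists of related genes, each at its brightest probe; filled points were called. ATF3 is filled in all 3 cell lines, from 1.56 to 2.51, and PPP1R15A from 1.74 to 2.87, while the 9 genes lie between -0.78 and 0.61 with no filled point.

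The genes most like each called gene were found by Pearson's r over the 12 group means after each cell line's mean was subtracted, which leaves the pattern over time and treatment and removes the difference between the lines, on which all of these genes but IER2 were called. For IER2 these were L3MBTL3 (0.957), SLK (0.946) and NEDD9 (0.934), and for KLF2 S100A10 (0.902), IL16 (0.893) and MFSD6L (0.878). For DUSP1 they were ADAR (0.914), JMY (0.906) and PJA2 (0.900), for EGR1 CHST13 (0.896), FAM95B1 (0.883) and CYTIP (0.873), and for JUNB ARSA (0.954), LRRC1 (0.942) and ISM1 (0.938). Without that subtraction r was 0.585 to 0.849 for the genes of IER2, -0.084 to 0.781 for KLF2, 0.183 to 0.898 for DUSP1, -0.017 to 0.141 for EGR1 and 0.44 to 0.701 for JUNB. The groups share cell lines and normalization, each list is the top of all probes tested, and these values are a description with no test.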

How the data were processed

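The authors deposited non-normalized Illumina intensities and detection p-values per array, and a table of processed intensities that equalled quantile-normalized signals without background subtraction to within 0.0207 on the log2 scale. Per the labels, limma was used; its version and the normalization are not given in the sources used here. From the non-normalized intensities, neqc (limma 3.58.1, R 4.3.3) used negative controls inferred through the detection p-values for background correction, added an offset of 16, quantile normalized and log2 transformed the values. To be tested, a probe needed a detection p under 0.05 on 2 or more of the 24 arrays. A mean per group was fitted to the 24 arrays in limma, which (12 residual and 7.418 prior degrees of freedom) gave the comparisons within and between cell lines. Across the cell lines, limma was fitted to the 12 group means, with cell line and condition as terms (6 residual degrees of freedom) and the line as replicate. Median signals were 82.6 to 112, and the number of arrays limits the precision. Probe names come from the platform annotation, in which 30112 probes had 1 symbol, 8 several and 17199 none. Both models were tested on simulated data.

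The genes named were all 10 members, up to 3 called genes of each list with the largest change, ACTB and GAPDH as controls, and the 3 symbols most like each called member. NFKBIA, MYC and the marker genes were named outside this rule, after seeing their values. The members and lists were chosen with earlier results of these data known. Alternatives were the deposited processed values, median scaling, leaving out the filter or making it stricter, array quality weights, a replicate block, the brightest probe of each gene, each cell line left out, the 6 group means of a comparison alone, and each array left out. Within a cell line, the other control or the mean of both controls also served as reference, with 0 of the genes called at 4 h or 12 h.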

Additional observations from a re-analysis of the deposited data

How the results depend on the processing

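No value of the 9 genes that was called reversed its direction in any alternative run. The 6 calls between the 0 h controls became 2 with the deposited processed values, 2 with median scaling, 3 with no filter on dim probes (47319 tested) and 3 with array quality weights, and stayed at 6 with the stricter filter (16375 probes, 8 of the genes), with the replicate block and with the brightest probe of each gene. With the deposited values, those lost were JUNB (-0.29, adjusted p = 0.0118) and DUSP1 (0.33) in BL-41 against SU-DHL-4, and EGR1 (0.32) and DUSP1 (-0.45) in SU-DHL-4 against Oci-Ly-2, the last 3 by the fold limit alone. With median scaling they were JUNB (-1.06, adjusted p = 0.0107), KLF2 (2.25, adjusted p = 0.0167) and DUSP1 (0.37, adjusted p = 0.291) in BL-41 against SU-DHL-4, and DUSP1 (-0.80, adjusted p = 0.0361) in SU-DHL-4 against Oci-Ly-2. The 12 h controls gave 4 and the mean of both controls 7, both added after seeing the data. The 1 call over the cell lines at 12 h, IER2, became 0 with the deposited processed values (-0.23, adjusted p = 0.00816), where only the fold limit was missed, with median scaling (-0.51, adjusted p = 0.0297), with no filter (adjusted p = 0.0228), with only the 6 group means compared (adjusted p = 0.0167), and 0 without BL-41, 0 without SU-DHL-4 and 0 without Oci-Ly-2. Fewer samples enter those last fits, and more probes are adjusted for with no filter. Without SU-DHL-4 the log2 fold change of IER2, at -0.45, missed the fold limit as well. The cause of the lost calls was not tested. Leaving out each array in turn gave 2 to 6 calls between the 0 h controls, 0 to 1 over the lines at 12 h, and 0 to 0 in the others. Median scaling moved the median of all probes by -0.29 to 0.20 over the comparisons. Relative to it KLF2 in BL-41 was 2.52 against SU-DHL-4 and 2.55 against Oci-Ly-2, EGR1 0.84 and DUSP1 -1.004 in SU-DHL-4 against Oci-Ly-2, DUSP1 0.64 and JUNB -0.78 in BL-41 against SU-DHL-4, and IER2 -0.49 over the lines. Replicate numbers did not meet the rule for pairing, a correlation over 0.1 in every pair. Of 66 pairs of groups 14 were over it (median 0.048), and of the 9 compared within a line 6 were (-0.144 to 0.279), while the replicate block left the calls at 6. A slide block was not run, since no slide is given. Dim signals limit FOS, JUN, IER3, FOSB outside SU-DHL-4 and DUSP1 within SU-DHL-4, and values near background understate differences. JUNB, EGR1 and IER2 were dim as well, at raw signals of 91.5 to 139, 81.6 to 137 and 93.1 to 183. Array medians over all probes were 82.6 to 112. KLF2 was detected on 3 of the 8 arrays of Oci-Ly-2.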
